A study of Schizosaccharomyces pombe with 6 samples.

Results

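The 10 genes described here encode the intracellular cascade that carries the mating pheromone signal in fission yeast, Schizosaccharomyces pombe, and the formin used when mating cells fuse. They were listed by systematic identifier for what their products do, by a rule that uses no measured value, although earlier results of these data were known when it was written: gpa1, rgs1, ras1, ste6, gap1, ste4, byr2, byr1, spk1 and fus1. They are 10 of the 7268 genes in the count table, and all 10 passed the filter on low counts that left 6018 genes for testing.

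RNA was sequenced from WT (972), saf5 and cwf12 strains, with 2 libraries for each of the 3 strains, which the study's methods call biological replicates. Saf5 and Cwf12 are proteins tied to pre-mRNA splicing, and each deletion strain is labelled as lacking 1 of them. All strains were untreated and grew in YE5S, a rich medium, at 30 °C to an OD600 of 0.5, so the cells were proliferating and had not been starved. The strain list of the study holds deletion strains that also carry a leucine auxotrophy allele, and a cwf12 deletion strain of the mating type opposite to that of 972. Which of these strains was sequenced is not given in the sources used here, so the deletion, the auxotrophy and the mating type cannot be told apart.

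Mating in fission yeast joins a cell of the P type with a cell of the M type. Each type secretes a peptide pheromone that binds a receptor on the other, and the receptor acts through the G protein α subunit Gpa1 on a mitogen-activated protein kinase (MAPK) cascade in which Byr2 activates Byr1 and Byr1 activates Spk1. The GTPase Ras1 and the adaptor Ste4 help to activate Byr2. Nitrogen starvation is the usual trigger, since it raises the transcription factor Ste11, which binds a short element called the TR box before many mating genes. Growing cells in rich medium keep the pathway low but not silent.

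The library totals ran from 9113139 to 12054198 counts. Reads on cwf12 fell from 556 and 531 counts in WT to 41 and 32 in the cwf12 libraries, a log2 fold change of -4.08 (adjusted p = 1.04e-09). Reads on saf5 were still present in the libraries labelled Δsaf5, at 220 and 249 counts against 323 and 234 in WT (log2 fold change -0.33, adjusted p = 0.0904). The directions given for Δsaf5 therefore rest on the labels of these libraries. Throughout, a gene passed the test at a Benjamini-Hochberg adjusted p under 0.05 from edgeR's quasi-likelihood test over the 6018 genes, and levels are given as CPM, counts scaled to library size and then by trimmed means (TMM), with the SD over 2 libraries. Since the libraries are bulk samples, fewer cells of a type and less RNA per cell cannot be told apart.

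The DNA before the start codons was searched for the core of the TR box, because Ste11 is the activator that the mating genes have in common. The letters searched were TTCTTTGTT on both strands, within 1000 bases before the start codon in the ASM294v3 genome of RefSeq, where all 10 genes were found by identifier. The core stood before 6 of the 10 genes, with 11 matches, and before 323 of all 5113 coding genes (6.32%). Within 500 bases it stood before 5 of the 10 genes and before 3.58% of all coding genes. The match nearest to the start codon of each of the 6 genes is shown with 10 bases on each side, in capitals for the core and in the orientation in which it reads as searched.
ste4, 87 bases before the start codon, chrI:1296579-1296607, gene strand: tgagtatgctTTCTTTGTTataaaagtag
fus1, 165 bases before, chrI:4817490-4817518, opposite strand: gaacataactTTCTTTGTTcggtttaacc
ste6, 180 bases before, chrIII:1765896-1765924, opposite strand: ttttgggaatTTCTTTGTTtactaacaat
gap1, 418 bases before, chrII:947802-947830, gene strand: aagcattttaTTCTTTGTTctcttttttt
rgs1, 458 bases before, chrI:679708-679736, gene strand: atttaatgatTTCTTTGTTtaaaagaaag
spk1, 600 bases before, chrI:3001550-3001578, gene strand: caaagaaactTTCTTTGTTattgtaagtt

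The rgs1 and spk1 windows held 3 matches each and the fus1 window held 2, while ste4, ste6 and gap1 had 1. As the windows were counted from the start codon, the matches of fus1 and gap1 lie inside the annotated transcripts of these genes. Those of rgs1, spk1, ste4 and ste6 lie before the annotated transcripts. The windows of gpa1, ras1, byr1 and byr2 held no match to these letters. Of the genes with a match, ste4 and spk1 rose in the libraries labelled Δsaf5 as described further on, gap1 fell, and rgs1, ste6 and fus1 did not pass the test there. Of those without a match, gpa1, byr1 and byr2 rose in these libraries and ras1 did not pass. In Δcwf12, ste4, spk1, gap1 and rgs1 fell among the genes with a match. Among those without, gpa1 fell and ras1 rose. The core was not particular to the 10 genes. Within 1000 bases it also stood before prm1, mam4, mfm1, mfm3, map1, map4, dni1, dni2, gnr1, myo51 and cdc8. These belong to the lists of other pathway genes described further on, whose remaining genes held no match. A match is a description of the sequence only, and binding of Ste11 was not measured.

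**Figure D1:**
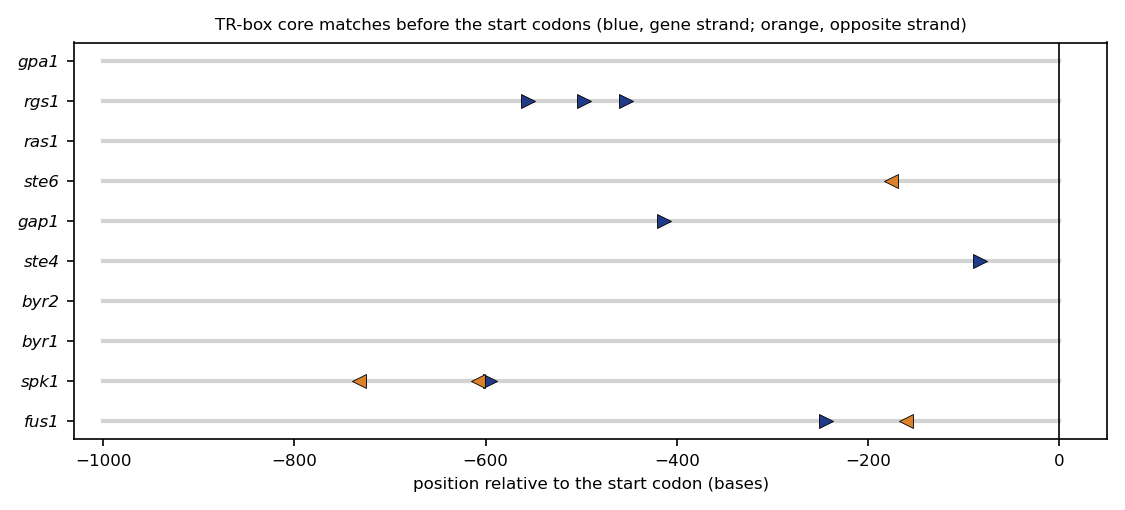
Position of each TR-box core match relative to the start codon, in bases, for the 10 genes, with 1 grey line per gene for the 1000 bases searched; blue triangles are matches on the gene's strand and orange triangles those on the opposite strand. The ste4 match is the one closest to a start codon, at 87 bases, and 4 genes have no match.

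As Saf5 and Cwf12 are splicing proteins, the introns of the 10 genes were listed from the same annotation. Of the 10 genes, 3 have 1 intron each and the other 7 have none, whereas 48.3% of coding genes have an intron. The intron of ras1 is 71 bases long and that of ste4 is 158 bases, both in the coding region, and the 40-base intron of gap1 lies in a UTR. The median over all 5226 introns of coding genes was 56 bases. The 5′ splice sites are shown with 3 exon bases in lower case and the first 6 intron bases in capitals.
ras1, chrI:2020412-2020482: aggGTAAGT
ste4, chrI:1296256-1296413: aagGTATGT
gap1, chrII:942780-942819: aatGTAAGC

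The 6 intron bases of ras1 begin 27.5% of all introns and those of ste4 19.7%, while those of gap1 begin 4.25%. The counts are per gene and do not separate spliced from unspliced reads, so no splicing value can be given for these introns. The genes that changed in what follows included genes with and without an intron.

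Against WT, gpa1, ste4, byr2, byr1 and spk1 (5 of the 10) rose in the libraries labelled Δsaf5, gap1 fell, and 4 did not pass the test. Among all genes tested 24.7% were higher and 25.5% lower in this comparison, so a change as such was common. Only ste4 was also past 2-fold, a size that 6.20% of all genes reached upwards and 2.49% downwards. The median log2 fold change of the 10 genes was 0.38, against 0.02 for all genes. DESeq2 gave 5 higher and no gene lower. When each library was left out in turn, the number that passed ranged from 4 (without Δsaf5 replicate 2) to 8 (without WT replicate 2).

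Against WT, gpa1, rgs1, gap1, ste4 and spk1 (5 of the 10) fell in Δcwf12, ras1 rose, and 4 did not pass the test. Of all genes, 25.0% were lower and 25.5% higher. The median log2 fold change of the 10 genes was -0.38, against -0.00 for all genes. None of the 10 was past 2-fold with edgeR, also at an unadjusted p under 0.05, whereas 7.31% of all genes were higher by that much and 2.64% lower. DESeq2 placed 1, ste4, past 2-fold, as did edgeR without WT replicate 2, and without Δcwf12 replicate 2 there were 2, gpa1 and ste4.

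Compared directly, 7 of the 10 genes were higher in the libraries labelled Δsaf5 than in Δcwf12 (gpa1, rgs1, gap1, ste4, byr2, byr1 and spk1), ras1 was lower, and ste6 and fus1 did not pass the test. Over all genes 25.4% were higher and 27.8% lower. Past 2-fold were gpa1, ste4 and spk1, all higher, against 3.95% of all genes in that direction and 4.62% in the other. The side of the 2-fold line depended on single libraries for spk1 and byr1. For spk1 the log2 difference was 0.96 without Δsaf5 replicate 2. For byr1 it was 0.98 with all libraries, 1.0031 without Δsaf5 replicate 1 and 1.0019 without Δcwf12 replicate 1. The median log2 fold change of the 10 genes was 0.74, against 0.01 for all genes. Both comparisons with WT use the same 2 WT libraries, so their values for a gene are not independent of each other.

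**Figure D2:**
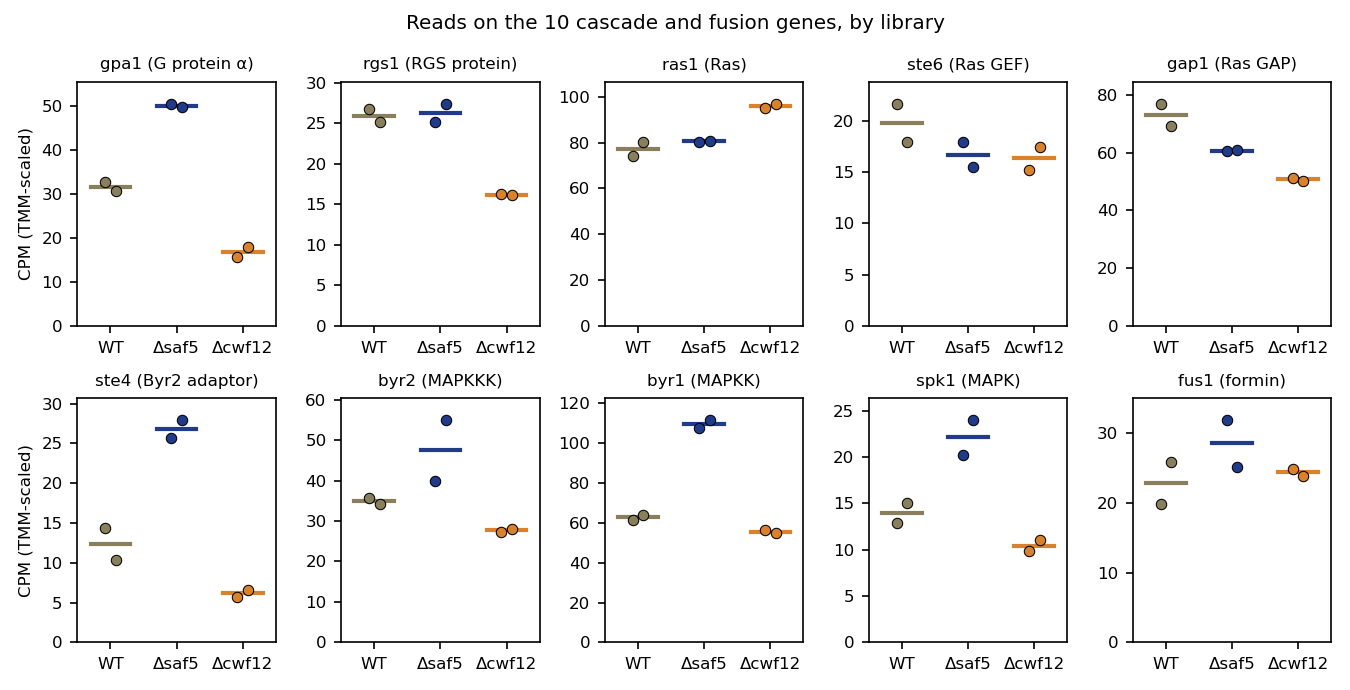
CPM of the 10 genes by strain, with 1 point per library and a line at the mean of the 2 libraries; the vertical axes start at 0 and differ between genes. For gpa1, ste4, byr1, byr2 and spk1 the libraries labelled Δsaf5 lie highest and the Δcwf12 libraries lowest, while for ras1 the Δcwf12 libraries lie highest.

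The gene gpa1 (SPBC24C6.06, chromosome II, 2329710 to 2331890 in ASM294v3, plus strand, no intron) encodes the G protein α subunit that both pheromone receptors act through. It had 32.6 and 30.7 CPM in WT, 50.5 and 49.6 in the libraries labelled Δsaf5, and 15.6 and 18.0 in Δcwf12. The 3 strains did not overlap, and each mean stood apart from the next by much more than the SD. Against WT (31.7 ± 1.38 CPM, SD, n = 2) gpa1 rose 1.58-fold in the libraries labelled Δsaf5 (log2 fold change 0.66, SE 0.099, adjusted p = 0.000188). It fell 1.89-fold in Δcwf12 (log2 fold change -0.92, SE 0.11, adjusted p = 2.94e-05). The direct comparison gave a 2.99-fold difference (log2 fold change 1.58, adjusted p = 1.75e-07). Each of these calls held in all 12 alternatives.

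The protein of rgs1 (SPAC22F3.12c, chromosome I, 679803 to 681890, plus strand, no intron) is a regulator of G protein signalling, which dampens the pheromone response. It had 26.7 and 25.2 CPM in WT, 25.1 and 27.4 in the libraries labelled Δsaf5, and 16.2 and 16.2 in Δcwf12. Here WT and Δsaf5 overlapped (log2 fold change 0.02, adjusted p = 0.904), and the Δcwf12 libraries lay below both. The fall in Δcwf12 was 1.60-fold (log2 fold change -0.68, SE 0.12, adjusted p = 0.0005) and held in all 12 alternatives. Per length, the ratio of gpa1 to rgs1 was 1.56 and 1.55 in WT, 2.56 and 2.31 in the libraries labelled Δsaf5, and 1.23 and 1.42 in Δcwf12. The lengths used were those listed with the counts. With annotated exon lengths the mean levels of gpa1 and rgs1 were 14.5 and 12.4 CPM per kb in WT. They were 23.0 and 12.6 in the libraries labelled Δsaf5, and 7.70 and 7.75 in Δcwf12. The reads of gpa1 were thus highest relative to those of rgs1 in the libraries labelled Δsaf5, and protein amounts were not measured.

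The gene gnr1, not one of the 10, encodes a G protein β-like protein that acts as a negative regulator of the pheromone response. It had the largest log2 fold change against WT in both deletions among the other regulators listed. Its counts were 42 and 51 in WT, 302 and 293 in the libraries labelled Δsaf5, and 328 and 263 in Δcwf12. This was a rise of 2.60 on the log2 scale in Δsaf5 (adjusted p = 1.04e-07) and of 2.48 in Δcwf12 (adjusted p = 6.78e-08). The 2 deletions did not differ beyond the test (log2 difference 0.12, SE 0.11, adjusted p = 0.393). Per length, gpa1 was 5.22 and 4.10 times gnr1 in WT, 1.22 and 1.19 times in the libraries labelled Δsaf5, and 0.395 and 0.484 times in Δcwf12, so that the order of the 2 genes was turned in Δcwf12. A noncoding RNA on the opposite strand, SPNCRNA.1158, covers 96.1% of gnr1 and fell in both deletions, with 424 and 369 counts in WT, 337 and 294 in the libraries labelled Δsaf5 (log2 fold change -0.41, adjusted p = 0.00668) and 360 and 310 in those of Δcwf12 (-0.43, adjusted p = 0.00463).

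**Figure D3:**
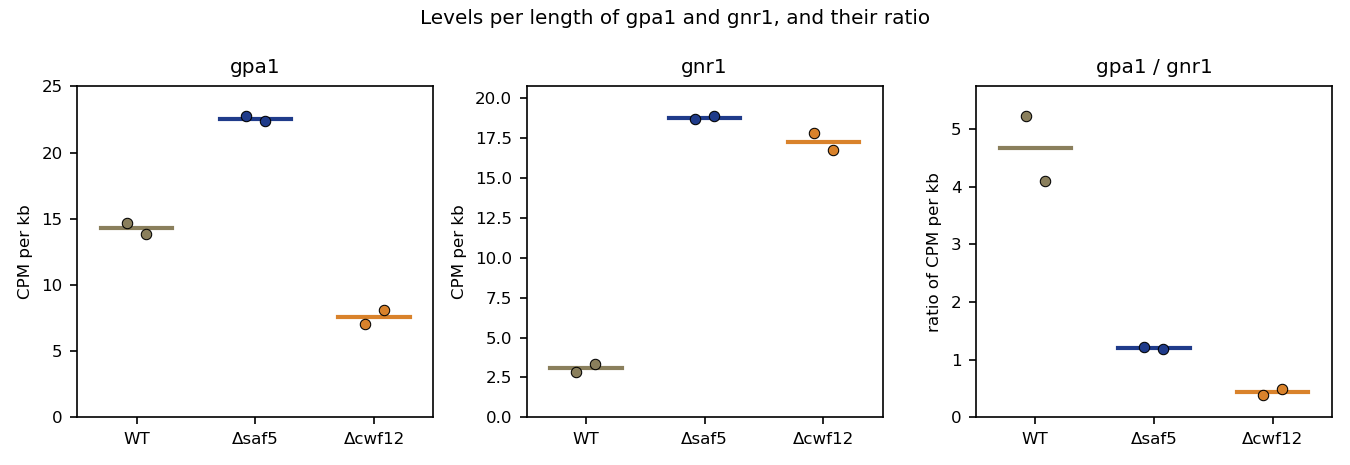
Level per length (CPM per kb of listed gene length) of gpa1 and gnr1 and the ratio of the 2 levels, with 1 point per library and a line at each strain's mean. gnr1 lies near 3 CPM per kb in WT and between 16.7 and 18.9 in both deletions, and the ratio is below 1 only in Δcwf12.

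The Ras GTPase gene ras1 (SPAC17H9.09c, chromosome I, 2019462 to 2020631, minus strand, 1 intron) had the most reads per length of the 10. Its protein acts on Byr2 in mating and on cell shape through the Cdc42 exchange factor Scd1. It had 74.0 and 80.4 CPM in WT, 80.5 and 80.6 in the libraries labelled Δsaf5, and 95.1 and 97.0 in Δcwf12. The rise in Δcwf12 was 1.24-fold (log2 fold change 0.31, SE 0.07, adjusted p = 0.00238), in the direction opposite to the 5 genes that fell. In the libraries labelled Δsaf5 the log2 fold change was 0.06 (SE 0.07, adjusted p = 0.492), and the libraries lay just above the higher WT library. The direct difference of -0.25 (adjusted p = 0.00817) was lost with DESeq2 (adjusted p = 0.0548) and without either Δcwf12 library.

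Ras1 is switched on by exchange factors and off by GTPase-activating proteins. The exchange factor used in mating is encoded by ste6 (SPCC1442.01, chromosome III, 1766086 to 1768971, plus strand, no intron). It had 21.7 and 17.9 CPM in WT, 17.9 and 15.5 in the libraries labelled Δsaf5, and 15.2 and 17.5 in Δcwf12. It passed no test (log2 fold changes of -0.24 and -0.28 against WT, adjusted p = 0.19 and 0.134), and the 2 deletions overlapped. The lower WT library lay within 0.1 CPM of the higher Δsaf5 library, and without WT replicate 2 both comparisons passed (-0.37 and -0.42).

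The GTPase-activating protein is encoded by gap1 (SPBC646.12c, chromosome II, 942688 to 948187, minus strand, 1 intron). It had 76.9 and 69.0 CPM in WT, 60.5 and 60.8 in the libraries labelled Δsaf5, and 51.4 and 50.2 in Δcwf12, and the 3 strains did not overlap. It fell 1.44-fold in Δcwf12 (log2 fold change -0.52, SE 0.08, adjusted p = 0.000148) in all 12 alternatives. The fall in the libraries labelled Δsaf5 (log2 fold change -0.27, SE 0.08, adjusted p = 0.0128) was lost with DESeq2 (adjusted p = 0.067) and without WT replicate 1 or either Δsaf5 library (adjusted p from 0.0561 to 0.0756). The direct difference of 0.26 (adjusted p = 0.0164) was lost in 5 of 12 alternatives.

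Per length, ras1 stood at 4.41 and 5.34 times gap1 in WT, 6.10 and 6.07 times in the libraries labelled Δsaf5 and 8.48 and 8.86 times in Δcwf12. The ratio of ras1 reads to gap1 reads was thus highest in Δcwf12, with no overlap between strains, and protein amounts were not measured. The ratio of ste6 to gap1 lay between 0.462 and 0.630 in all 6 libraries. A second exchange factor, efc25, which acts on Ras1 in cell shape rather than in mating, fell in both deletions (log2 fold changes of -0.69 and -0.54, adjusted p = 7.69e-06 and 3.32e-05).

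Among the 10 genes, ste4 (SPAC1565.04c, chromosome I, 1295316 to 1296543, minus strand, 1 intron) had the largest log2 fold change in each of the 3 comparisons. Ste4 is an adaptor that binds Byr2 and is needed for its activation in mating. It had 133 and 97 counts in WT, 259 and 270 in the libraries labelled Δsaf5, and 66 and 65 in Δcwf12, or 14.3 and 10.3, 25.7 and 27.9, and 5.76 and 6.64 CPM. The 3 strains did not overlap. It rose 2.18-fold in the libraries labelled Δsaf5 (log2 fold change 1.12, SE 0.16, adjusted p = 0.000147) and fell 1.99-fold in Δcwf12 (log2 fold change -0.99, SE 0.20, adjusted p = 0.00126). Between the deletions the difference was 4.34-fold (log2 fold change 2.12, SE 0.18, adjusted p = 1.3e-06). The 3 changes held in all 12 alternatives, but the 2-fold line did not: without WT replicate 2 the rise was 0.91, and the fall lay past 1 with RLE scaling and DESeq2.

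The MAPK kinase kinase gene byr2 (SPBC1D7.05, chromosome II, 1740048 to 1742344, minus strand, no intron) had 35.7 and 34.3 CPM in WT, 40.0 and 54.9 in the libraries labelled Δsaf5, and 27.2 and 28.1 in Δcwf12. The Δsaf5 libraries differed from each other more than either WT library differed from the lower of them. The rise in Δsaf5 (log2 fold change 0.44, SE 0.13, adjusted p = 0.0148) rested on replicate 2, without which it was 0.19 (adjusted p = 0.192). In Δcwf12 the log2 fold change was -0.34 (SE 0.14, adjusted p = 0.0572), and it passed in 5 of 12 alternatives: with the replicate number as a block (adjusted p = 0.0368), with only the strains compared, and without WT replicate 2 or either Δsaf5 library (adjusted p from 0.0141 to 0.0181 in these 4). The direct difference of 0.78 (adjusted p = 0.000413) held in all 12 alternatives. The ratio of ste4 to byr2 per length was 0.749 and 0.559 in WT, 1.20 and 0.947 in the libraries labelled Δsaf5, and 0.394 and 0.440 in Δcwf12. The reads of ste4 thus varied more between strains than those of byr2.

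The MAPK kinase gene byr1 (SPAC1D4.13, chromosome I, 668004 to 669742, plus strand, no intron) had 61.5 and 63.8 CPM in WT, 107 and 111 in the libraries labelled Δsaf5, and 56.2 and 55.1 in Δcwf12. Its rise in Δsaf5 was 1.75-fold (log2 fold change 0.80, SE 0.07, adjusted p = 2.1e-06), the smallest adjusted p of the 10 genes in that comparison. The replicates were close, and the change held in all 12 alternatives. In Δcwf12 the log2 fold change was -0.17 (SE 0.07, adjusted p = 0.063), and it passed in none of the alternatives.

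The MAPK of the cascade is encoded by spk1 (SPAC31G5.09c, chromosome I, 2999546 to 3001518, minus strand, no intron), which had 12.9 and 15.1 CPM in WT, 20.3 and 24.0 in the libraries labelled Δsaf5, and 9.86 and 11.0 in Δcwf12. It rose 1.58-fold in the libraries labelled Δsaf5 (log2 fold change 0.66, SE 0.15, adjusted p = 0.00324), in all 12 alternatives. The fall in Δcwf12 (log2 fold change -0.43, SE 0.17, adjusted p = 0.0472) was near the threshold and was lost in 7 of 12 alternatives, among them DESeq2 (adjusted p = 0.112) and any fit without WT replicate 2 or a Δcwf12 or Δsaf5 library. Between the deletions spk1 differed 2.12-fold (log2 fold change 1.09, adjusted p = 0.000101). The ratio of spk1 to byr1 per length stayed between 0.158 and 0.213 in the 6 libraries.

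The formin gene fus1 (SPAC20G4.02c, chromosome I, 4813111 to 4817786, minus strand, no intron) builds the actin structure at the site where the walls of 2 mating cells are opened. It had 19.9 and 25.9 CPM in WT, 31.9 and 25.2 in the libraries labelled Δsaf5, and 24.9 and 23.9 in Δcwf12. Both deletions overlapped WT, and none of the comparisons passed (log2 fold changes of 0.32, 0.09 and 0.23, adjusted p = 0.0911, 0.641 and 0.207). Without WT replicate 2 the Δsaf5 comparison passed (0.52, adjusted p = 0.00234).

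**Figure D4:**
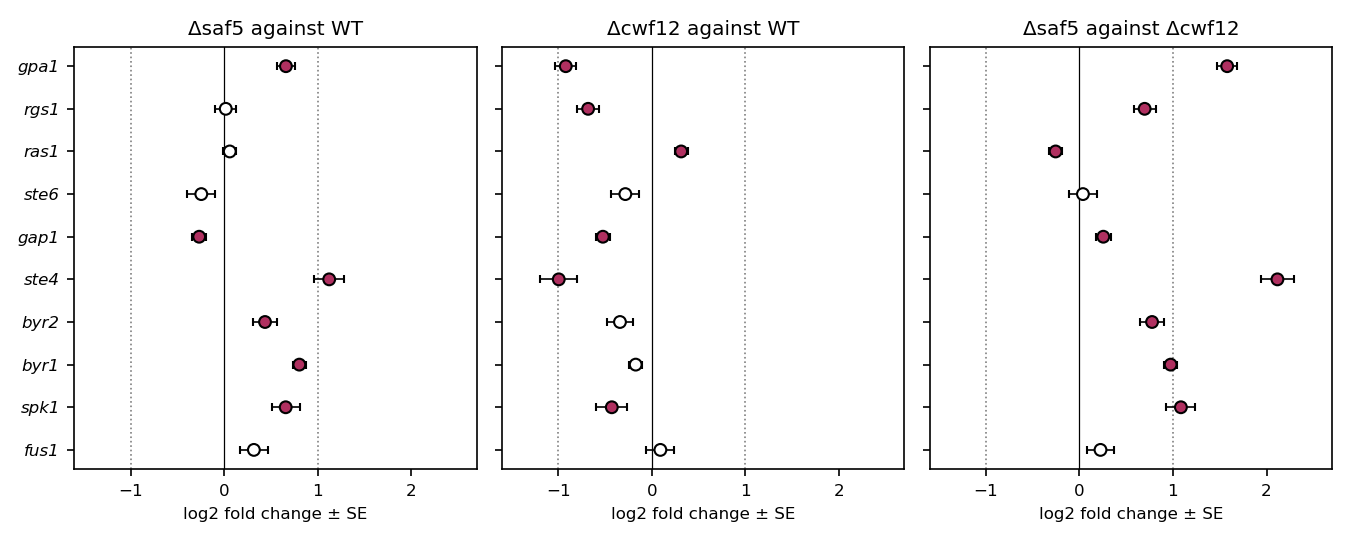
Log2 fold change with its standard error (horizontal bars) for the 10 genes in the 3 comparisons, from 1 fit of all 6 libraries; filled points passed the test, open points did not, and dotted lines mark 2-fold. ste4 and gpa1 lie farthest from 0 in the direct comparison of the deletions, at 2.12 and 1.58.

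Levels between genes were compared per kb of the length listed with the counts. In WT they ran from 63.9 ± 3.74 CPM per kb for ras1 and 32.5 ± 0.851 for byr1 down to 4.90 ± 0.904 for fus1 (SD, n = 2). Between these, gpa1 (14.3 ± 0.620), byr2 (14.2 ± 0.389) and gap1 (13.2 ± 1.01) lay within their spread of each other, as did ste4 (9.34 ± 2.16) and rgs1 (9.17 ± 0.386), and spk1 (6.54 ± 0.711) and ste6 (6.47 ± 0.856). Among 4950 coding genes tested, ras1 stood at the 67.5th percentile and byr1 at the 42.5th, and the other 8 lay between the 5.45th and the 15.7th. The order moved most for ste4, which ranked 6 in WT, 4 in the libraries labelled Δsaf5 (20.3 CPM per kb) and 10 in Δcwf12 (4.70 CPM per kb). For rgs1 the listed length of 2829 bases is longer than the 2088 annotated exon bases, and with exon lengths rgs1 and ste4 exchanged places, as did gpa1 and byr2.

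Several of the 10 genes share their locus with another transcript. The library kit was stranded, but the strand setting of the counting is not given in the sources used here, so reads from a gene and from a partner on the opposite strand may not be fully separated. Noncoding RNAs without counts here are annotated opposite byr2 (SPNCRNA.5332, 67.2% of the gene), gap1 (SPNCRNA.4941, 41.8%) and fus1 (SPNCRNA.4163, 5.39%). The 5 noncoding RNAs on the opposite strand that are in the table include SPNCRNA.1227, which covers all of ste6. It had 101 and 135 counts in WT, 210 and 178 in the libraries labelled Δsaf5, and 391 and 358 in Δcwf12, a rise of 0.64 (adjusted p = 0.00437) and of 1.48 on the log2 scale (adjusted p = 3.7e-06). It thus held fewer reads than ste6 in WT (201 and 169) and more than ste6 in the libraries labelled Δsaf5 (180 and 150) and in Δcwf12 (174 and 171).

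The pattern at fus1 was alike in direction. SPNCRNA.1026, which covers 68.5% of fus1, rose from 94 and 90 counts in WT to 136 and 158 in the libraries labelled Δsaf5 (log2 fold change 0.60, adjusted p = 0.00733) and 338 and 313 in Δcwf12 (1.64, adjusted p = 1.59e-06). SPNCRNA.1503, which covers 47.3% of gpa1, rose by 0.33 (adjusted p = 0.0457) and 0.54 (adjusted p = 0.00287) on the log2 scale, so in Δcwf12 it rose while gpa1 fell. SPNCRNA.674, which covers all of byr1, passed neither test (0.11 and 0.27), and SPNCRNA.675 at rgs1 fell in Δcwf12 (-0.70, adjusted p = 0.0301). The part of these partners in the values of the 10 genes was not tested.

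**Figure D5:**
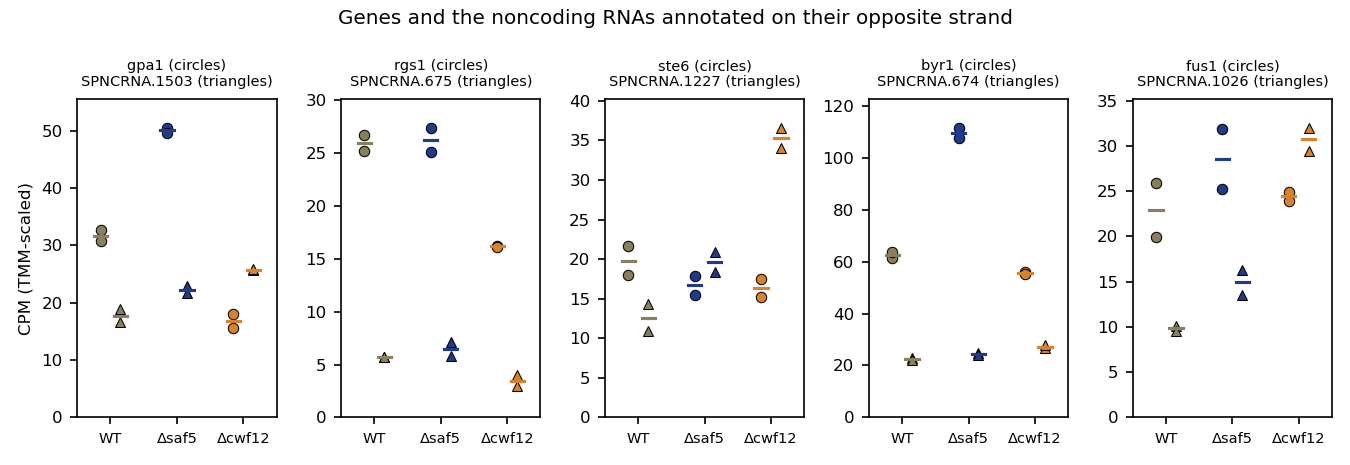
CPM of 5 of the genes (circles) and of the noncoding RNA annotated on the opposite strand of each (triangles), with 1 point per library and lines at the means of 2 libraries. The triangles of SPNCRNA.1227 lie below the circles of ste6 in WT and above them in both deletions, and those of SPNCRNA.1026 lie above the circles of fus1 only in Δcwf12.

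Coding genes also lie opposite some of the 10. The heme synthesis gene hem4 covers 77.3% of spk1 and moved against it: 1294 and 1336 counts in WT, 1020 and 1144 in the libraries labelled Δsaf5, and 2077 and 1686 in Δcwf12 (log2 fold changes of -0.36 and 0.33, adjusted p = 0.0025 and 0.00321). It held over 4 times the counts of spk1 in every library. The gene leu5, which covers 87.3% of ras1, and cct6, which covers 36.7% of gap1, passed no test. Shorter overlaps of 15 to 69 bases tie ste6 to glm2 (on the same strand), ste4 to SPAC1565.03, byr2 to mrpl7 and fus1 to caf16. Of these, mrpl7 fell in Δcwf12 (-0.37, adjusted p = 0.00305) and caf16 rose (0.35, adjusted p = 0.000766).

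Of 33 other genes of the pathway, from 5 lists, 14 rose and 4 fell in the libraries labelled Δsaf5, and 5 rose and 14 fell in Δcwf12, with median log2 fold changes of 0.15 and -0.23. Directly compared, 15 were higher in Δsaf5, 2 were lower and 16 did not pass. Among the 10 genes for pheromones and their processing, export and breakdown, 5 rose and 1 fell in the libraries labelled Δsaf5. In Δcwf12, 2 rose and 5 fell. Beside these counts, 24.7% of all genes rose and 25.5% fell in Δsaf5, and 25.5% rose and 25.0% fell in Δcwf12. Directly compared, 25.4% of all genes were higher in Δsaf5 and 27.8% lower. The 3 genes for the M-factor pheromone did not move together. mfm2 had 92 and 92 counts in WT, 98 and 98 in the libraries labelled Δsaf5, and 7 and 12 in Δcwf12 (log2 fold change -3.44, adjusted p = 1.23e-06). For mfm1 the WT counts were 4 and 2, those of the libraries labelled Δsaf5 14 and 17 (2.25, adjusted p = 0.00289), and those of Δcwf12 12 and 7 (1.44, adjusted p = 0.0486), the latter a call that held in 1 of 10 alternatives. For mfm3 the WT counts were 6 and 6, those of the libraries labelled Δsaf5 12 and 17 and those of Δcwf12 3 and 3, and its call in Δsaf5 (1.18, adjusted p = 0.0326) held in 5 of 11. The mfm genes encode the same peptide and are short copies of each other, so reads may have been split between them.

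Of the 4 receptors and agglutinins, 2 rose in the libraries labelled Δsaf5 and 1 fell in Δcwf12, against 24.7% and 25.0% of all genes. The P-factor receptor gene mam2 had 46 and 21 counts in WT, 104 and 92 in the libraries labelled Δsaf5 (log2 fold change 1.47, adjusted p = 0.00153) and 54 and 30 in Δcwf12 (0.13, adjusted p = 0.771). The 2 WT libraries of mam2 differed more than 2-fold from each other. The M-factor receptor gene map3 passed no test.

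Of the 8 other regulators, 2 rose and 2 fell in the libraries labelled Δsaf5, and 1 rose and 4 fell in Δcwf12. Those that fell in both were efc25 and cdc42, and the rise in both was that of gnr1. Of 7 genes for cell fusion, 3 rose in the libraries labelled Δsaf5, and 2 rose and 1 fell in Δcwf12. Beside the counts of both lists, 24.7% of all genes rose and 25.5% fell in Δsaf5. In Δcwf12 25.5% rose and 25.0% fell. The membrane protein gene dni2 had WT counts of 17 and 11, against 56 and 37 in the libraries labelled Δsaf5 (1.64, adjusted p = 0.00164), with 33 and 20 in Δcwf12 (0.73, adjusted p = 0.128). prm1, for a membrane protein of the fusion step, rose in both (0.51 and 0.92).

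Of the 4 transcription factors of mating, 2 rose and 1 fell in the libraries labelled Δsaf5, and none rose and 3 fell in Δcwf12. Among all genes 24.7% rose and 25.5% fell in Δsaf5, and 25.5% rose and 25.0% fell in Δcwf12. prr1 fell in both deletions (log2 fold changes of -0.79 and -0.44, adjusted p = 1.85e-06 and 0.000135). rst2 fell in Δcwf12 (-0.27, adjusted p = 0.00829) and did not pass in Δsaf5 (-0.10, adjusted p = 0.296). ste11 followed the order of ste4 and gpa1. It had 144 and 219 counts in WT, 254 and 282 in the libraries labelled Δsaf5, and 105 and 96 in Δcwf12. Its fall in Δcwf12 (log2 fold change -1.03, adjusted p = 0.000775) held in all 12 alternatives. The rise in Δsaf5 (0.49, adjusted p = 0.0294) did not: it was 0.22 without WT replicate 1 and 0.81 without WT replicate 2, and it was lost with DESeq2 and without WT replicate 1 or either Δsaf5 library (adjusted p from 0.0634 to 0.208). map1, an activator of P-cell genes, rose in the libraries labelled Δsaf5 (1.43, adjusted p = 0.00101), from 37 and 19 counts to 77 and 83. Between the deletions ste11 differed by 1.52 (adjusted p = 2.7e-05) and map1 by 1.57 on the log2 scale (adjusted p = 0.000442).

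Genes for proteins related to the 10 in other pathways were looked at for comparison, such as the glucose-sensing α subunit Gpa2, the stress MAPK Sty1 with its kinases, and the formins For3 and Cdc12. Of 10 such relatives none rose and 5 fell in the libraries labelled Δsaf5, with none higher at an unadjusted p under 0.05 by edgeR and none by DESeq2. In Δcwf12, 1 rose and 8 fell. Over all genes 24.7% rose and 25.5% fell in Δsaf5, and 25.5% rose and 25.0% fell in Δcwf12. The median log2 fold changes of the relatives were -0.12 and -0.46. Of the 10 cascade and fusion genes 5 fell in Δcwf12, with a median of -0.38, so a fall there was not particular to them. gpa2 fell in both deletions (-0.76 and -0.50, adjusted p = 6.06e-06 and 9.71e-05), whereas gpa1 rose in one and fell in the other.

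Markers of mating type and of starvation were measured in the same libraries. Genes of starved cells summed to 288 and 306 CPM in WT, 488 and 497 in the libraries labelled Δsaf5, and 231 and 225 in Δcwf12, over 5 genes (ste11, mei2, isp4, isp6 and fnx1) of which 4 rose in Δsaf5 and 3 fell in Δcwf12. One of the rises and one of the falls is ste11, already described, whose rise was lost in 4 of 12 alternatives. Of these, mei2 rose by 1.77 (adjusted p = 6.03e-05) and fell by 1.01 on the log2 scale (adjusted p = 0.0168; 0.182 without WT replicate 2, and also lost without Δcwf12 replicate 2), and isp4 rose by 0.68 (adjusted p = 8.49e-06) and fell by 1.49 (adjusted p = 2.1e-08). isp6 rose by 1.05 in the libraries labelled Δsaf5 (adjusted p = 2.52e-07) and did not pass in Δcwf12 (0.01, adjusted p = 0.941). The sum of 7 M-cell markers was 136 and 144 CPM in WT, 195 and 192 in the libraries labelled Δsaf5, and 132 and 135 in those of Δcwf12. Its members did not move together: 4 rose in Δsaf5, and in Δcwf12 2 rose and 3 fell, with log2 fold changes from -3.44 (mfm2) to 1.44 (mfm1). Beside the counts of the starvation and M-cell lists, 24.7% of all genes rose and 25.5% fell in Δsaf5. In Δcwf12 25.5% rose and 25.0% fell. The sum of 4 P-cell markers was 520 and 583, 543 and 544, and 467 and 438 CPM, nearly all of it from sxa1. Without sxa1 it was 62.4 and 52.5 CPM in WT, 66.1 and 68.5 in the libraries labelled Δsaf5, and 51.5 and 47.4 in Δcwf12, and no marker of any of these lists was at 0. The summed starvation markers, like gpa1, ste4 and spk1, were highest in the libraries labelled Δsaf5 and lowest in Δcwf12, but isp6 and fnx1 did not pass the test in Δcwf12, and fnx1 not in Δsaf5 either. Most of the fall of the sum in Δcwf12 came from isp4, with a mean of 88.5 CPM in WT and 31.5 in Δcwf12. The part of these markers in the values of the 10 genes was not tested.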

How the data were processed

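The authors extracted RNA with hot phenol, prepared stranded mRNA libraries, trimmed the paired reads with Trimmomatic, mapped them with STAR to ASM294v2 and counted them with HTSeq. The deposited values are raw counts per gene for 7268 genes, without normalization, and a length per gene that is not described. The annotation release, the feature type and the strand setting are not given in the sources used here.

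The counts were analysed with edgeR 4.0.16 (R 4.3.3): filterByExpr by strain (6018 genes), TMM factors, 1 quasi-likelihood fit of 6 libraries with a coefficient per strain, and Benjamini-Hochberg adjustment. Standard errors are the log2 fold change over the square root of F. A gene passed at an adjusted p under 0.05, and 2-fold calls also needed a log2 fold change of 1 in size. The procedure was tested on simulated counts. The alternatives tried were a fit of only the strains compared, a replicate block, each library omitted, RLE factors, DESeq2 1.42.0, and a filter of none or of 10 counts per library. A lone library was then taken to vary like the others. For levels per length, exon lengths of the annotation were the alternative.

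Names, introns and sequences come from RefSeq's ASM294v3, which matched 6846 of 7268 identifiers. Its coordinates are not those of the counting. The genes named are the 10, the deleted genes, genes that overlap one of the 10 (or gnr1, added after its value was seen), and genes of the fixed lists past 2-fold in either deletion. Pathway genes with a match to the TR-box core are named as well. Also efc25, prm1, prr1, rst2, gpa2 and map3, and genes named only as examples of a list or overlap, were chosen after their values were seen. The rule for the 10 genes uses no measured value, but it and the lists were chosen with earlier results of these data known. No library was a copy of another: chi-square over degrees of freedom between replicates was 21.9, 6.17 and 1.99.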

Additional observations from a re-analysis of the deposited data

Results flagged for a closer look

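These results are listed because the 2 deletions differed from each other by edgeR's quasi-likelihood test of the direct contrast (adjusted p under 0.05). Each value is the log2 difference of the libraries labelled Δsaf5 over Δcwf12.

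Of the cascade genes, the difference was 2.12 for ste4, 1.58 for gpa1, 1.09 for spk1, 0.98 for byr1, 0.78 for byr2 and 0.70 for rgs1. The GTPase-activating protein gene gap1 differed by 0.26, and the Ras gene ras1, by -0.25, was the one gene of the 10 that was lower in the libraries labelled Δsaf5. For gap1 and ras1 the call was lost with DESeq2 (adjusted p = 0.0996 and 0.0548) and without either Δcwf12 library, and for gap1 also without either Δsaf5 library.

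Among the other pathway genes, the M-factor genes mfm2 and mfm3 differed by 3.45 and 2.33, the receptor gene mam2 by 1.33, the fusion gene dni2 by 0.92, and the transcription factor genes ste11 and map1 by 1.52 and 1.57. For dni2 the call was lost with DESeq2 (adjusted p = 0.0922), without Δsaf5 replicate 1 (0.62, adjusted p = 0.211) and without Δcwf12 replicate 2 (0.72, adjusted p = 0.141). Of the starvation markers, mei2 differed by 2.77, isp4 by 2.17 and isp6 by 1.04.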

How the results depend on the processing

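With 2 libraries per strain, single libraries decided several values. The number of the 10 genes that passed ranged from 4 to 8 in Δsaf5 against WT, from 5 to 7 in Δcwf12 against WT and from 6 to 8 between the deletions when each library was left out. DESeq2 gave 5, 5 and 6, against 6, 6 and 8. Calls past 2-fold were less stable: the single call in Δsaf5, ste4, ranged from 0 to 1, and the count of 0 in Δcwf12 became 1 with RLE factors and 1 with DESeq2 and ranged from 0 to 2. With the replicate number as a block the counts that passed were 6, 7 and 8. The labels state no batch for the replicate numbers. Correlations of same-numbered deviations were 0.04, -0.01 and -0.03, which cannot show whether same-numbered samples were handled together.

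Directions turned only for values that did not pass. When each library was left out, the log2 fold change ranged from -0.045 to 0.079 for rgs1 and from -0.015 to 0.043 for mfm2 in Δsaf5. In Δcwf12 it ranged from -0.085 to 0.28 for fus1, -0.34 to 0.82 for mam2, -0.56 to 0.43 for map1 and -0.052 to 0.057 for isp6, which was -0.0011 with DESeq2. Between the deletions ste6 ranged from -0.069 to 0.15. Of the values for single genes, 681 kept direction and side of the threshold, 44 lost it, 8 gained it and 12 turned. The ratio of the highest to the lowest level per length in WT was 13.0, and 14.3 with exon lengths. The depth limits mfm1 and mfm3 most, with at most 17 counts in a library.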
